A study of Mus musculus with 6 samples.

Results

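The cardiac transcription factors described here are *Gata4*, *Gata6*, *Nkx2-5*, *Mef2a*, *Mef2c*, *Tbx5*, *Tbx20*, *Hand2*, *Srf* and *Myocd*. They were chosen by name as core regulators of heart muscle genes, and each Ensembl identifier in the table was matched to its symbol. All 10 were among the 16018 genes listed for the hearts of 3 female KOb/c mice and 3 female WT mice, 4 to 5 weeks old, and all 10 passed the filter on low values that left 16016 genes. KOb/c mice (labelled NBCe1-B/C KO) lack the B and C variants of NBCe1, the sodium bicarbonate cotransporter encoded by *Slc4a4*, in all tissues and not in the heart alone. Both genotypes came from crosses between heterozygous C57BL/6J mice, and many KOb/c animals die at about the age studied, so the hearts are those of mice that had survived until then. The labels name no region of the heart, and the libraries are bulk RNA, in which fewer cells of a type and less RNA per cell cannot be told apart.

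These proteins bind DNA at the promoters and enhancers of contractile, ion channel and natriuretic peptide genes, usually several of them at a time. GATA4 and GATA6 are zinc finger proteins, NKX2-5 is a homeodomain protein, TBX5 and TBX20 carry a T-box, and HAND2 is a basic helix-loop-helix protein. MEF2A, MEF2C and SRF belong to the MADS-box family, which binds AT-rich elements. Myocardin, the product of *Myocd*, binds no DNA by itself and acts as a coactivator held on SRF. Several of them direct the formation of the chambers in the embryo and go on being expressed in the grown heart.

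In these hearts, 8 of the 10 factors had a higher mean in KOb/c than in WT, and the median log2 fold change over the 10 was 0.23, against -0.0043 over all 16016 genes. Without KOb/c 1, the median over the 10 was 0.13, and without KOb/c 2 it was 0.26. *Myocd* differed most clearly, with 1.36-fold more normalized counts in KOb/c and no overlap between the genotypes. *Mef2a*, *Mef2c* and *Tbx5* were also higher in each KOb/c library than in each WT library, by 1.147-fold to 1.247-fold. *Nkx2-5* and *Srf* had a lower mean in KOb/c, and *Gata4* was nearly level. No factor passed an adjusted p of 0.05 in the limma comparison, while *Myocd* did so by DESeq2.

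The normalized counts are reads per gene scaled by 1 divisor per library, and the reads on genes ranged from 41364857 to 49100802. Each factor had between 1063 and 13358 reads in a library, so that counting error alone came to between 1.03% and 3.07% of a value. The targeted gene, *Slc4a4*, was at 264.0 normalized counts in KOb/c 1, 944.8 in KOb/c 2 and 268.7 in KOb/c 3. It was at 675.1, 822.2 and 788.8 in WT 1, 2 and 3, the libraries being numbered as in the labels. The library labelled KOb/c 2 thus had more *Slc4a4* RNA than each WT library, and values without it are given for the factors whose call or fold change it moves most. Ventricular heart muscle markers were present in full (8 of 8), and their summed level did not overlap between the genotypes, from 2261610 to 2548360 in KOb/c and from 1977600 to 2087600 in WT. Of these 8 genes, 4 had a log2 fold change above 0 and 4 below 0. The sum is weighted to the most abundant, such as *Myh6*, with means of 1159410 in KOb/c and 792350 in WT. The summed level of the atrial markers (6 of 6 present) was 18459.6 in KOb/c 1 and 26645 in WT 1, and it lay between 77194 and 114786 in the other 4 libraries. Endothelial markers (8 of 8) summed to between 49684 and 53182 in KOb/c and between 46916 and 48864 in WT. Pericyte markers (5 of 5) summed to between 47220.5 and 58668 in KOb/c and between 44015 and 45644 in WT, and pacemaker cell markers (3 of 4) to between 1580.6 and 2057 in KOb/c and between 1195 and 1471 in WT. These 3 sums were thus also higher in each KOb/c library, and those of the other 9 of 13 marker lists overlapped. The part of these marker levels in the results was not tested.

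**Figure D1:**
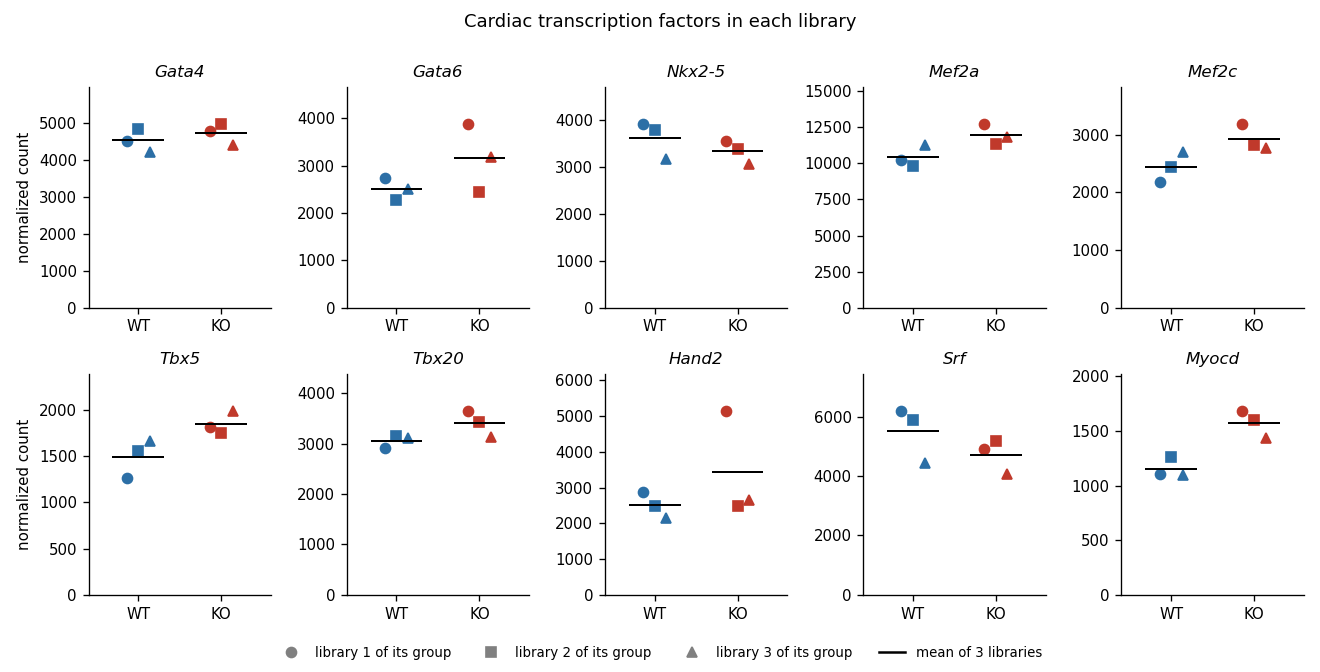
Normalized counts (vertical axes, from 0) of the 10 factors in the 3 WT (blue) and 3 KOb/c (red) libraries. Marker shapes give the library number within its genotype and black lines the means. The genotypes do not overlap for *Mef2a*, *Mef2c*, *Tbx5* and *Myocd*, and KOb/c 1 lies far above the other libraries for *Hand2*.

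Of the GATA factors, *Gata4* (chr14:63198922-63271692, minus strand, GRCm38) is required for heart tube formation and for the growth of heart muscle cells under load. It was at 4768, 4967 and 4387 normalized counts in KOb/c 1, 2 and 3 and at 4511, 4833 and 4218 in WT 1, 2 and 3. These were the most even values of the 10 genes, with the highest library 1.18 times the lowest, and the genotypes overlapped. KOb/c differed from WT by a log2 fold change of 0.06 ± 0.07 (SE, n = 3 and 3), with an adjusted p of 0.680 by limma. Its direction depended on the scaling between libraries: the value was -0.014 after rescaling to the same total and -0.0037 after quantile normalization. Without KOb/c 2, it was 0.02, and over the 6 fits that leave out 1 library it ran from 0.01 to 0.11.

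*Gata6* (chr18:11052064-11085635, plus strand), which shares much of the work of *Gata4*, was at 3885 in KOb/c 1, 2447 in KOb/c 2 and 3177 in KOb/c 3, against 2737, 2279 and 2508 in the WT libraries. KOb/c 1 and 3 were above all WT libraries and KOb/c 2 lay among them. *Gata6* had a log2 fold change of 0.32 ± 0.15 with an adjusted p of 0.246 by limma and 0.0992 by DESeq2. Without KOb/c 2, it was 0.49, and the adjusted p by DESeq2 was 0.00514, whereas that by limma was 0.128. Without KOb/c 1, it was 0.16. The log2 ratio of *Gata4* to *Gata6* within a library, which no scaling between libraries can move, was 0.30, 1.02 and 0.47 in KOb/c 1, 2 and 3 and 0.72, 1.08 and 0.75 in WT 1, 2 and 3. The difference of -0.26 had an exact two-sided permutation p of 0.4, where 3 libraries against 3 can reach no less than 0.1. Without KOb/c 2, this difference was -0.47.

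*Nkx2-5* (chr17:26838664-26845009, minus strand), one of the earliest markers of heart precursors, was at 3535, 3376 and 3061 in KOb/c and at 3909, 3788 and 3152 in WT. The WT libraries 1 and 2 held the highest values and KOb/c 3 the lowest, while WT 3 lay inside the KOb/c range. Its log2 fold change was -0.12 ± 0.09 (adjusted p of 0.491 by limma), and it was 0.03 after the correction for length and GC content described below. With 1 library left out, it ran from -0.21 to -0.06.

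The MEF2 factors are activated by calcium-dependent signals and are held in check by class II histone deacetylases. *Mef2a* (chr7:67231163-67372858, minus strand) was at 12747, 11329 and 11847 in KOb/c and at 10244, 9842 and 11249 in WT. KOb/c 2, the lowest of its group, was just above WT 3, the highest of the other. For *Mef2a*, this gave a log2 fold change of 0.20 ± 0.07, with an adjusted p of 0.162 by limma and 0.0984 by DESeq2. *Mef2c* (chr13:83504034-83667080, plus strand) was at 3193, 2827 and 2772 in KOb/c and at 2187, 2451 and 2706 in WT, again without overlap and again with KOb/c and WT nearest to each other through WT 3. Its log2 fold change was 0.26 ± 0.09, with an adjusted p of 0.141 by limma and 0.0743 by DESeq2.

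The proportion of the pair differed less between the genotypes than among the WT libraries. There were 3.99, 4.01 and 4.27 counts of *Mef2a* per count of *Mef2c* in KOb/c 1, 2 and 3, and 4.68, 4.02 and 4.16 in WT 1, 2 and 3. On the log2 scale, the difference was -0.06 (exact two-sided permutation p of 0.5), and it was 0.0012 without WT 1. *Mef2d*, the third family member with a value, was at 8515 to 9129 in KOb/c and 6964 to 7356 in WT. Its log2 fold change was 0.31 ± 0.06, and it passed DESeq2 (adjusted p of 0.00112) and not limma (0.0815).

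*Tbx5* (chr5:119832668-119885219, plus strand), needed for the septa and the conduction system, was at 1816, 1752 and 1986 in KOb/c and at 1258, 1556 and 1664 in WT. WT 1 was the lowest and the genotypes did not overlap. The log2 fold change was 0.32 ± 0.11, with an adjusted p of 0.129 by limma and 0.0559 by DESeq2. Without WT 1, it was 0.20. *Tbx20* (chr9:24718138-24774303, minus strand), which keeps adult heart muscle cells functioning, was at 3643, 3419 and 3139 in KOb/c and at 2906, 3154 and 3116 in WT. KOb/c 3 lay below WT 2, so the genotypes overlapped, and the log2 fold change was 0.15 ± 0.07 (adjusted p of 0.250 by limma), or 0.10 without KOb/c 1. There were 0.499, 0.513 and 0.632 counts of *Tbx5* per count of *Tbx20* in KOb/c 1, 2 and 3, and 0.433, 0.493 and 0.534 in WT 1, 2 and 3, a difference of 0.17 on the log2 scale with an exact two-sided permutation p of 0.4. With 1 library left out, this difference ran from 0.06 to 0.24. After the correction for length and GC content described below, it was 0.35, with a permutation p of 0.1, the lowest that can be reached.

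*Hand2* (chr8:57320983-57324633, plus strand), a factor of the right ventricle and the outflow tract in the embryo, varied most among the libraries. It was at 5144 in KOb/c 1, 2498 in KOb/c 2 and 2657 in KOb/c 3, and at 2879, 2497 and 2153 in the WT libraries. KOb/c 1 stood at 2.06 times the median of the other 5 libraries, and KOb/c 2 and 3 were within the WT range. The log2 fold change of 0.38 ± 0.25 (adjusted p of 0.387 by limma) was 0.05 without KOb/c 1 and 0.57 without KOb/c 2, and no fit called it.

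The genes next to *Hand2* and *Gata6* were counted in the same libraries. *Hand2os1*, an antisense transcript that starts inside *Hand2*, shares 461 bases of exon with it, which is 19.6% of the *Hand2* exons, and how the counting treated strand was not given in the sources used here. It was at 1774.5, 1396 and 1635 in KOb/c and at 1865, 1598 and 1744 in WT, so it was not raised in KOb/c 1. *1010001N08Rik*, on the strand opposite *Gata6*, starts 503 bases inside it and shares 93 bases of exon with it, which is 1.43% of the *Gata6* exons. It was at 735.4, 450.7 and 535.7 in KOb/c and at 509.1, 485.4 and 404.2 in WT, and KOb/c 1 was the highest library for both genes of that pair. KOb/c 1 was also the library with the least atrial and adipocyte marker RNA, the 4 adipocyte markers with a value summing to 82.4 there and to between 1245 and 5028 elsewhere. Whether this bears on *Hand2* and *Gata6* was not tested.

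**Figure D2:**
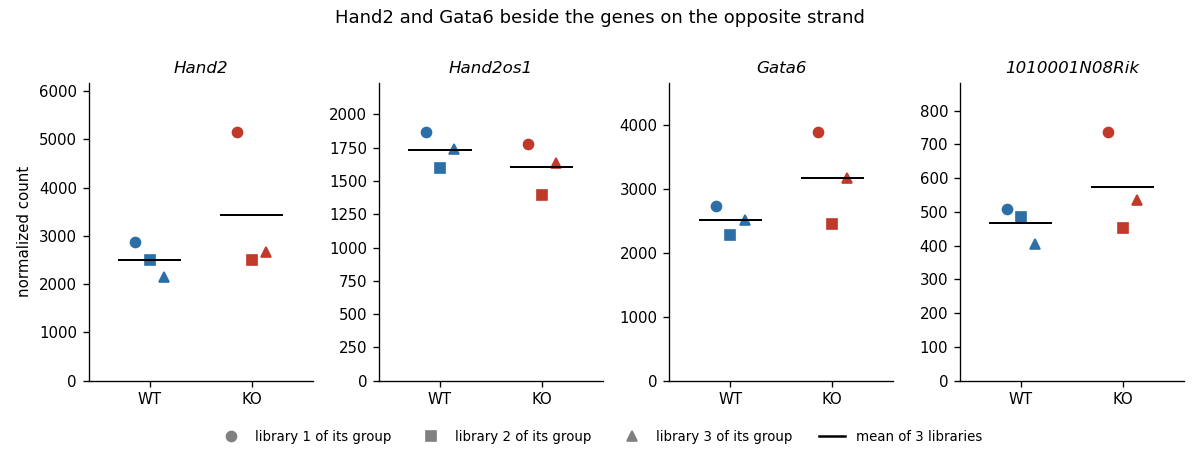
Normalized counts (vertical axes, from 0) of *Hand2* and *Gata6* and of the genes on the opposite strand next to them, in the 3 WT (blue) and 3 KOb/c (red) libraries, with black lines at the means. KOb/c 1 (red circle) is the highest library for *Hand2*, *Gata6* and *1010001N08Rik* and not for *Hand2os1*.

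*Srf* (chr17:46548329-46556175, minus strand) encodes serum response factor, which binds the CArG box, an element made of a pair of Cs, a run of As and Ts and a pair of Gs. It was at 4913, 5178 and 4073 in KOb/c and at 6184, 5880 and 4440.1 in WT. WT 1 and 2 were the highest and KOb/c 3 the lowest, with WT 3 inside the KOb/c range, the same arrangement of libraries as for *Nkx2-5*. The log2 fold change was -0.21 ± 0.13, with an adjusted p of 0.374 by limma and 0.261 by DESeq2. It was -0.28 without KOb/c 2, -0.11 without KOb/c 3, -0.12 without WT 1 and -0.36 without WT 3. Of the fits with 1 library left out, DESeq2 called *Srf* only without WT 3 (adjusted p of 0.0413).

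*Myocd* (chr11:65176561-65269989, minus strand) was at 1680.2, 1599 and 1430.5 in KOb/c and at 1107, 1263 and 1096 in WT. The lowest KOb/c library was above the highest WT library by more than the SD of either genotype, which was 127 in KOb/c and 93.3 in WT. The log2 fold change was 0.44 ± 0.09, with a 95% interval from 0.24 to 0.64. The adjusted p was 0.0815 by limma, 0.0805 by edgeR and 0.00189 by DESeq2, and by the unadjusted p of limma the gene ranked 148 among 16016. DESeq2 called it with each of the 6 libraries left out in turn, with an adjusted p of at most 0.0287, and at 0.0158 without KOb/c 2. *Myocd* is also active in smooth muscle cells, whose summed markers (4 of 4 present) overlapped between the genotypes, from 20191 to 23691 in KOb/c and from 14875 to 27491 in WT.

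The upstream sequence of *Srf* is shown because SRF and myocardin act through the CArG box. The RefSeq promoter windows used here covered 6 of the 10 genes (8 windows, GRCm38.p6), and were searched over the 250 bases before the start. The *Srf* window, chr17:46556163-46556412 on the minus strand, held a pair of CArG boxes, printed in capitals, at -82 to -73 and at -62 to -53 from the start.
*Srf*: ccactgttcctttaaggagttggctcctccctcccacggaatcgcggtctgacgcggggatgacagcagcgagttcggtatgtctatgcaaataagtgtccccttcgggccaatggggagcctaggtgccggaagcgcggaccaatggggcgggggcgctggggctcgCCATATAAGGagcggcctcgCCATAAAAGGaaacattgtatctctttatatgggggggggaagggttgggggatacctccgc

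Among all 32851 windows, 1.47% held a CArG box on either strand. The windows found for *Nkx2-5*, *Mef2a*, *Mef2c*, *Tbx20* and *Hand2* held none, and none of the windows of the factors held a MEF2 element, which 2.92% of all windows did. Counted by gene, 1.62% of the 27025 genes with a window held a CArG box in at least 1 of them. Of the lists followed below, 3 of 21 cardiomyocyte genes with a window, 3 of 24 coregulators and 2 of 5 ternary complex genes held one. None was held by the 8 paralogues and 16 other heart transcription factors with a window. A match is a description of letters and not a binding site. Of the 13 listed genes known to be driven by SRF with myocardin or its relatives MRTF-A and MRTF-B, 9 had a window and 3 held a CArG box, shown in capitals with 10 bases on each side so that the elements can be compared.
*Vcl*, chr14:20929161-20929190, plus strand: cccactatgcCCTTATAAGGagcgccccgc
*Actg1*, chr11:120348566-120348595, minus strand: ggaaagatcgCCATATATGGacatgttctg
*Myl9*, chr2:156775293-156775322, plus strand: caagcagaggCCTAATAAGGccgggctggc

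The log2 fold changes of these 3 genes had both signs. *Vcl*, encoding vinculin, which ties actin to cell contacts, was at 4242, 3141 and 3240 in KOb/c 1, 2 and 3 and at 2230, 2737 and 2465 in WT 1, 2 and 3. Its log2 fold change was 0.51 ± 0.12, and it passed DESeq2 (adjusted p of 0.00237) and not limma (0.0844). *Actg1*, cytoplasmic gamma actin, had a log2 fold change of -0.25 ± 0.14 and *Myl9*, a myosin light chain, one of -0.31 ± 0.16, and neither passed either test.

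Over the genes as a whole, longer transcripts tended to be higher in KOb/c. The Spearman correlation between transcript length and log2 fold change was 0.454 across 15978 genes, which are not independent replicates, and the median transcript was 3863 bases for the 10 factors and 3188 for all genes. With each library adjusted for the length and GC content of its transcripts, the median log2 fold change of the factors was 0.11, against 0.01 for all genes. *Tbx20*, with the longest transcript of the 10 (9091 bases), changed direction to -0.06, and the values of *Mef2a* and *Mef2c* were 0.09 and 0.13, against 0.20 and 0.26 without it. *Myocd* was at 0.33, *Tbx5* at 0.29, *Gata6* at 0.32, *Hand2* at 0.48, *Gata4* at 0.09 and *Srf* at -0.14. *Myocd* remained called by DESeq2 with the correction, at an adjusted p of 0.0490, close to the threshold.

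**Figure D3:**
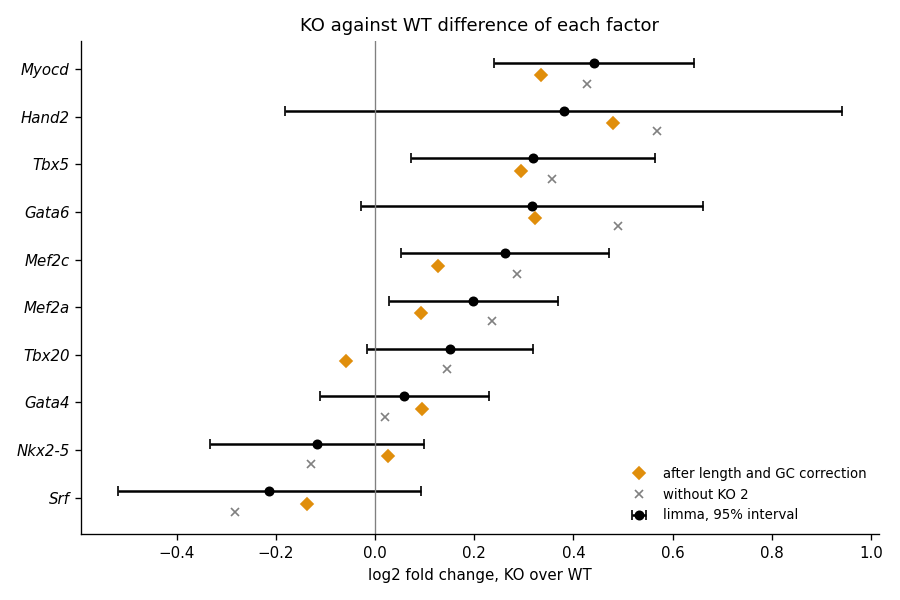
Log2 fold change of each factor (horizontal axis, KOb/c over WT). Black points and bars are limma estimates with 95% intervals, orange diamonds the estimates adjusted for length and GC content, and gray crosses those without KOb/c 2. The interval lies above 0 for *Myocd*, *Tbx5*, *Mef2c* and *Mef2a*, and *Tbx20* and *Nkx2-5* change sign with the correction.

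The counts of factors were read against the same counts over all genes. By limma, 0 of 10 factors and 0.00% of the 16016 genes passed an adjusted p of 0.05, and edgeR likewise called none. At an unadjusted p under 0.05, limma had 4 of 10 factors higher, against 13.0% of all genes, and 0 lower, against 10.5%. The same 4 factors did not overlap between the genotypes and were higher in KOb/c, against 15.6% of all genes, and 0 were apart in the other direction, against 14.6%. After the length and GC correction, 3 factors (*Mef2c*, *Tbx5* and *Myocd*) were apart and higher, against 11.2%. The number fell to 2 of 10 under each of the other scalings, *Mef2c* and *Myocd* after rescaling to the same total and *Tbx5* and *Myocd* after quantile normalization. DESeq2 called 1 factor higher, against 6.15% of all genes, and 0 lower, against 3.76%. With the correction, it called 1 higher, against 1.11%. Leaving out WT 3 raised the count by DESeq2 to 5 (*Mef2a*, *Mef2c*, *Tbx5* and *Myocd* higher, *Srf* lower), where 1118 of all 16016 genes were called. Leaving out KOb/c 2 raised it to 2 (*Gata6* and *Myocd*), where 1195 of all genes were called. Without KOb/c 2, 8 of 10 factors had the higher mean in KOb/c as well, and 5 did not overlap, *Gata6* joining the 4. The share of all genes apart was not computed without KOb/c 2 or under the other scalings. With 2 libraries on a side, genotypes are also apart more easily than with 3.

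The libraries with little atrial marker RNA, KOb/c 1 and WT 1, were also compared apart from the others. For *Myocd*, KOb/c 1 was above WT 1 by 0.60 on the log2 scale, and KOb/c 2 and 3 were above WT 2 and 3 by 0.36. For *Tbx5*, the differences were 0.53 and 0.21, for *Mef2c* 0.55 and 0.12, and for *Mef2a* 0.32 and 0.14. That these 4 genes were higher within both sets follows from their genotypes not overlapping. The differences for *Gata6* were 0.51 and 0.22, for *Hand2* 0.84 and 0.15, for *Tbx20* 0.33 and 0.06, and for *Gata4* 0.08 and 0.05. Those of *Srf* were -0.33 and -0.15, and those of *Nkx2-5* were -0.15 and -0.10. For each of the 10 factors, the difference between KOb/c 1 and WT 1 was the larger in size. With 1 or 2 libraries a side, these values carry no test.

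Per kilobase of the longest transcript, the factors covered nearly an order of magnitude. *Nkx2-5* was the highest, from 2007 to 2563 normalized counts per kb over the 6 libraries, followed by *Mef2a* (1777 to 2302) and *Srf* (1557 to 2364), and the ranges of these 3 overlapped. *Gata4* (1241 to 1461) came next, its range apart from that of *Srf* and overlapping that of *Hand2* (915.8 to 2188), which in turn overlapped that of *Gata6* (602.2 to 1027). Below them, and apart from *Gata6*, were *Mef2c* (348.4 to 508.6), *Tbx5* (319.1 to 503.7), *Tbx20* (319.7 to 400.8) and *Myocd* (214.3 to 328.6), each overlapping its neighbour in the order. The coactivator *Myocd* was thus the lowest of the 10 and its partner *Srf* among the highest. With the length of all annotated exons instead, *Mef2a* (670.4 to 868.3) moved to the fifth place and *Mef2c* (139.2 to 203.2) to the last, since both genes have many transcripts.

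**Figure D4:**
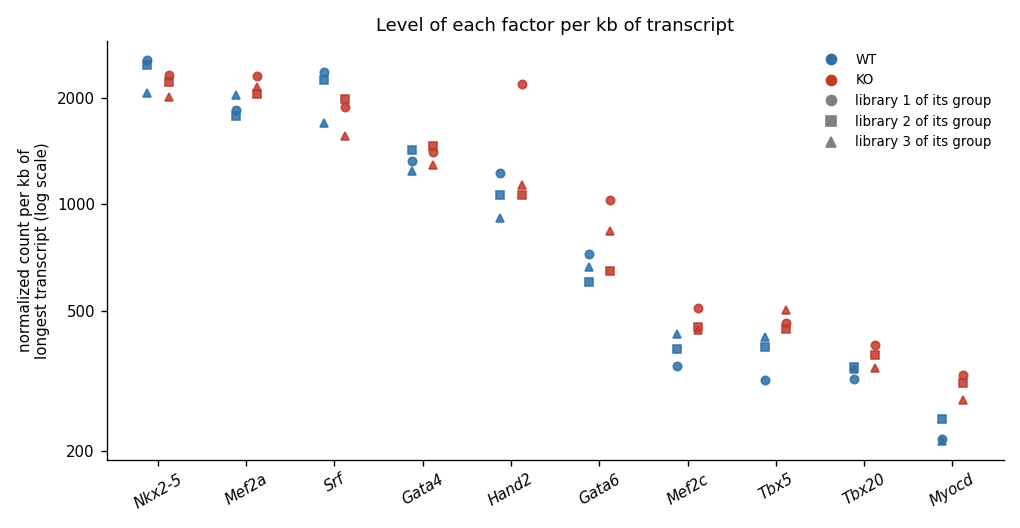
Normalized counts per kb of the longest transcript (vertical axis, log scale) of the 10 factors in the 3 WT (blue) and 3 KOb/c (red) libraries, ordered by the mean over all libraries. *Nkx2-5*, *Mef2a* and *Srf* are highest with overlapping ranges, and *Myocd* is lowest.

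No factor shares a run of 50 bases of exon with another of the 10, so reads of one should not have been split with another. Of the distinct 50-base runs in the transcripts of a factor, 15.8% were shared with another gene for *Hand2* (all with *Hand2os1*). The share was 3.65% for *Mef2a* (with *Lysmd4* on the opposite strand and with many other genes), and at most 0.682% for the other 8.

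Lists of related genes were followed to place the factors. Over all 16016 genes, 7879 had a log2 fold change above 0. DESeq2 called 6.15% of all genes higher and 3.76% lower, and 1.11% higher with the correction. Of 12 paralogues, 8 had a value, 7 of them were higher in KOb/c, and the median log2 fold change was 0.19, or 0.12 without KOb/c 2. *Mef2d* was the 1 called by DESeq2, and 0 were called with the correction. Of the 20 other heart transcription factors, 16 were higher, with a median of 0.23, and DESeq2 called 5, all higher, while 0 were called with the correction. They were *Prox1* (0.53 ± 0.13), *Ppara* (0.47 ± 0.18), *Esrrg* (0.46 ± 0.15), *Tead1* (0.46 ± 0.10) and *Foxp1* (0.38 ± 0.10), given as log2 fold change ± SE. Without KOb/c 1, *Ppara* was at 0.26 and *Esrrg* at 0.30. With 1 library left out in turn, DESeq2 called *Prox1* and *Tead1* in 6 of 6 fits, *Esrrg* in 4, *Foxp1* in 2 and *Ppara*, whose genotypes overlapped, in 1. *Ppara* and *Esrrg* are nuclear receptors that drive fatty acid oxidation and mitochondrial genes, and *Tead1* is the DNA-binding partner of the Hippo effector YAP.

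Among 27 coregulators, which bind the factors and raise or lower their activity, 20 were higher, with a median log2 fold change of 0.16. That median was 0.10 with the correction, and their median transcript was 5179 bases, against 3188 for all genes. DESeq2 called 7 higher and 1 lower, against 6.15% and 3.76% of all genes, and 0 with the correction. Those named by size were *Ep300* (0.49 ± 0.13), a histone acetyltransferase used by GATA4 and MEF2, *Mrtfb* (0.44 ± 0.11), a relative of myocardin, and *Hdac4* (0.41 ± 0.11), which represses MEF2. *Zfpm2* (0.41 ± 0.12) encodes FOG2, the cofactor of GATA4, and *Nfatc3* (0.32 ± 0.08) a calcineurin-dependent factor. With 1 library left out in turn, DESeq2 called *Ep300*, *Mrtfb* and *Hdac4* in 5 of 6 fits each, all but that without WT 1, and *Zfpm2* and *Nfatc3* in 2 each. Activators and repressors of the same factors were thus both among the higher genes. The lower gene was *Hopx*, a homeodomain protein that binds no DNA and restrains SRF, named after its value was seen. It was at 10773, 12053 and 11664 in KOb/c and 13143, 13445 and 13899 in WT, with a log2 fold change of -0.23 ± 0.07 and an adjusted p of 0.0240 by DESeq2.

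Of 24 cardiomyocyte genes that these factors are known to drive, 14 were higher and 10 lower, with a median of 0.13. DESeq2 called 9 higher and 1 lower, against 6.15% and 3.76% of all genes. *Nppb*, the gene of B-type natriuretic peptide, had the largest difference, at 1145, 2338 and 1010.1 in KOb/c and at 4452, 3809 and 3545 in WT, a log2 fold change of -1.49 ± 0.27 with an adjusted p of 0.0815 by limma and 0.0135 by DESeq2. Every KOb/c library was below every WT library, KOb/c 2 coming nearest to WT. Without KOb/c 2, the log2 fold change of *Nppb* was -1.86 and limma called it (adjusted p of 0.00277). By DESeq2, it was called in 4 of the 6 fits that leave out 1 library, the highest adjusted p being 0.0904, without WT 1, and not called without KOb/c 1 either. The log2 fold changes of the calcium handling genes *Slc8a1*, *Ryr2*, *Atp2a2* and *Cacna1c* were 0.64 ± 0.14, 0.61 ± 0.14, 0.48 ± 0.16 and 0.45 ± 0.13, and that of *Myh6*, the adult heavy chain of myosin, was 0.55 ± 0.18. Without KOb/c 1, *Cacna1c* was at 0.28, and DESeq2 did not call it without WT 1. With the length and GC correction, DESeq2 called 2 of the 24, *Myh6* (adjusted p of 0.000763) and *Atp2a2* (0.0128), both higher, against 1.11% of all genes. Both differences were smaller under the other scalings. By limma, their log2 fold changes were 0.48 and 0.41 after rescaling to the same total, and 0.16 and 0 after quantile normalization. Quantile normalization gives genes of equal rank equal values in every library. It can thus remove a difference for genes this near the top, and its values cannot settle whether *Myh6* and *Atp2a2* differed.

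The log2 fold changes of the SRF targets lay on both sides of 0. Of the 13 genes driven by SRF with myocardin or MRTF, 5 were higher and 8 lower, and the median log2 fold change was -0.15, although that of *Myocd* itself was 0.44. *Vcl* was the 1 gene called by DESeq2, with and without the correction (adjusted p of 0.0455 and 0.00237). Of the 8 growth-response genes that SRF drives in a ternary complex with ETS proteins, such as *Fos* and *Egr1*, 4 were higher, none was called by either tool, and none had an unadjusted p under 0.05 by limma. Their median was -0.03, and it was 0.26 without KOb/c 2 and -0.24 without KOb/c 1.

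**Figure D5:**
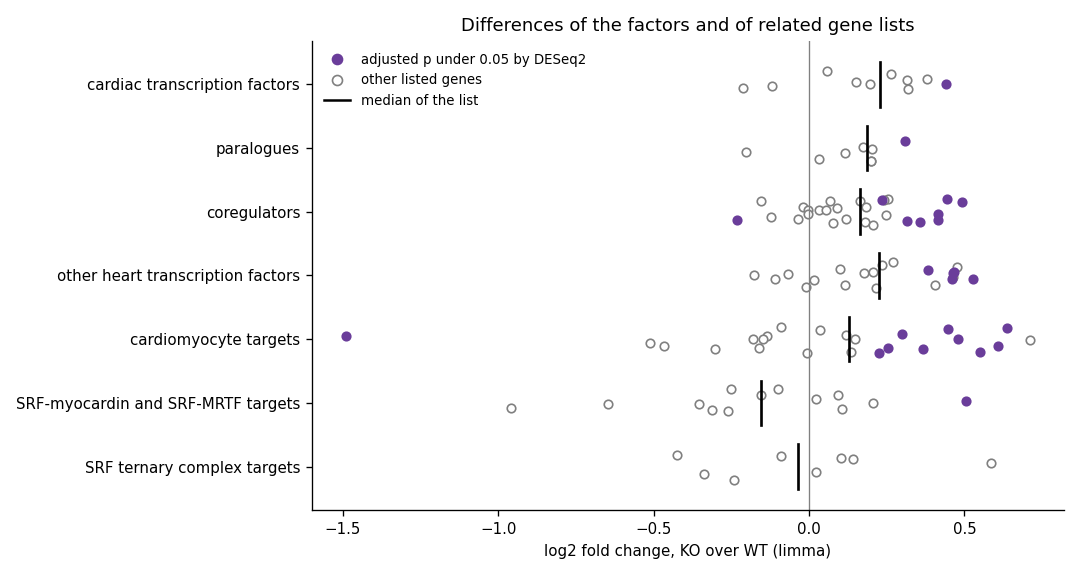
Log2 fold change (horizontal axis, KOb/c over WT, limma) of the 10 factors and of the members of each list of related genes. Each point is a gene, filled where DESeq2 gave an adjusted p under 0.05, and black bars are the medians. Medians are above 0 for the factors, paralogues, coregulators, other heart transcription factors and cardiomyocyte targets, and below 0 for both SRF target lists.

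Among the 11922 other genes that averaged 100 normalized counts or more, those whose pattern over the 6 libraries was most like each factor were found by Pearson correlation. Being the highest of so many, these correlations are a description only, and the libraries share depth and genotype. *Myocd* was closest to *Smarca2* (r = 1.000), an ATPase of the SWI/SNF chromatin remodelling complex, which was at 3791, 3667 and 3448 in KOb/c and at 2963, 3209 and 2965 in WT. Its next closest gene was *Supt6* (0.999), a transcription elongation factor. *Mef2c* was closest to *Kdm6a* (0.998), a histone demethylase, and *P2ry14* (0.996), and *Mef2a* to *Pkd2* (0.997) and *Abhd18* (0.995). *Tbx5* was closest to *Cyp4v3* (0.997), and *Tbx20* to *Tnks* (0.998), tankyrase, and *Pcm1* (0.994). *Gata6* followed *Stc2* (0.995) and *Emp2* (0.991), and *Gata4* followed *Cdkn1a* (0.992), the cell cycle inhibitor p21, and *Apbb1* (0.988). The neighbours of *Nkx2-5* were *Fam213b* (0.988) and *Aph1a* (0.987), and those of *Srf* were *Wdr70* (0.995) and *Tmub2* (0.994). *Hand2* was closest to *Sirt5* (0.995) and *Eef2k* (0.992), both of which were highest in KOb/c 1.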

How the data were processed

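Total RNA from 6 hearts was sequenced as paired reads of 150 bases on an Illumina HiSeq. The submitters' processing notes name Trimmomatic 0.36, STAR 2.5.2b, featureCounts of Subread 1.5.2, DESeq2 and the build GRCm38; the annotation and the treatment of strand are not given in the sources used here. Each deposited value is a signal made by the authors from the count of a gene, scaled by 1 divisor per library. Dividing by the value of 1 read gave whole reads for 100% of values (tolerance 0.01). No column was left unmatched.

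Symbols, positions and lengths are from GENCODE M21, chosen here, and promoters from RefSeq. log2(normalized count + 1) was compared with limma 3.58.1 (R 4.3.3) with a variance trend, over 16016 genes averaging 10 or more. Tests were two-sided, p-values were adjusted by Benjamini-Hochberg, and 0.05 was the threshold. edgeR 4.0.16 and DESeq2 1.42.0 (default filtering), both with the same adjustment, were run on the recovered reads. The correction subtracts, in each library, natural splines of log2 length of the longest transcript and of its GC content (5 degrees of freedom each). Single ratios were compared with exact permutation tests. Each library has a name of its own in the labels, read here as that of a mouse, and no batch is given. The procedures were tested on simulated counts.

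The 10 factors, the lists and the tests were chosen with earlier results of these data known. In a list, the genes named are those called by DESeq2 or, above 6, the 6 with the largest log2 fold change; for each factor, the 2 genes with the most similar pattern are named as well. Another 2 genes that meet these rules are not reported here. *Actg1*, *Myl9*, *Hopx* and the genes neighbouring *Hand2* and *Gata6* were named after their values were seen. The alternatives were other pseudocounts, filters, scalings and weights, the replicate block, the correction, the count tests and each library left out. The library left out under DESeq2 or the correction, the comparison within atrial marker levels and the overlap under other scalings were added after seeing the data.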

Additional observations from a re-analysis of the deposited data

How the results depend on the processing

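Of the 10 factors, 7 kept their direction under all 20 other settings that were planned, the exceptions being *Gata4*, *Nkx2-5* and *Tbx20*. The log2 fold change of *Gata4* was -0.0141 after rescaling to the same total and -0.0037 after quantile normalization. With the length and GC correction, with or without the replicate block, *Nkx2-5* was at 0.0255 and *Tbx20* at -0.059, and the same correction in DESeq2 gave 0.0266 and -0.0588. With the correction and 1 library left out, *Nkx2-5* ranged from -0.0385 to 0.0981. The limma count of factors past the threshold was 0 under all alternatives fitted by limma or edgeR, and 1 (*Myocd*) under DESeq2 with and without the correction. Over all genes, DESeq2 called 1587, and 345 with the correction, while limma called 0 with all libraries and from 0 to 3 with 1 library left out (3 without KOb/c 2). With 1 library left out, DESeq2 called from 1 to 5 factors and from 427 genes (without WT 1) to 1490 genes (without KOb/c 3), and limma with the correction called from 0 to 2 genes. The number of factors whose genotypes did not overlap was 2 after rescaling to the same total and 2 after quantile normalization.

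The log2 ratio of *Mef2a* to *Mef2c* differed between the genotypes by -0.1099 to 0.0012 with 1 library left out, turning positive without WT 1. The labels do not say whether the replicate numbers pair the mice. The correlation of the deviations of same-numbered libraries was 0.227, 0.0720 and -0.0290. For differently numbered libraries, it ran from -0.183 to 0.155. These values cannot settle whether the mice were paired. With the replicate block, limma called 0 factors, *Myocd* having an adjusted p of 0.105, and the ratios had exact sign-flip p-values of 0.75, 0.25 and 0.25, where 3 pairs can reach no less than 0.25. Counting error was at most 3.07% of a value, and the coefficient of variation within a genotype ran from 4.36% (*Tbx20*, WT) to 43.2% (*Hand2*, KOb/c).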
